A study of Saccharomyces cerevisiae with 6 samples.

Results

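Chromosome XII of budding yeast carries the ribosomal DNA, the tandem repeats that encode ribosomal RNA, and the genes described here lie beyond those repeats, between them and the right end of the chromosome. They were chosen by systematic name, as the features of the deposited expression table from YLR162W upward in number, and came to 335 of 7126 features. They were set against the 231 features on the other side of the repeats on the same chromosome (YLL names and YLR001 to YLR153), and against the 6516 features off chromosome XII. The boundary at the ribosomal DNA was picked because the difference between mutant and wild type was known to change there, so every value of that contrast over the region is a description and carries no test.

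RNA was measured in 3 libraries of the mms21RINGD mutant and 3 libraries of wild type. The labels give mms21RINGD as both strain and genotype of the mutant, and W303 as the strain of the wild type. They name no other allele and do not say whether the libraries of a group came from separate cultures or clones, so an adjusted p measures only the spread between these libraries. All cells were harvested in exponential phase from YPD with CSM, with no further treatment, and ribosomal RNA was depleted before library making. The question of the series, by its title, is how the SUMO ligase Mms21 bears on the making of ribosomes.

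Mms21 is a ligase for SUMO, a small protein modifier, and works as a subunit of the Smc5/6 complex, a ring-shaped relative of cohesin and condensin that binds chromosomes. The ribosomal DNA is transcribed in the nucleolus, is replicated with a barrier to replication forks in each repeat, and is among the last parts of the genome to be separated at cell division. The right portion of chromosome XII can be separated only when the repeats in front of it have been resolved. Genes beyond the repeats have no role in common: they encode ribosomal proteins, enzymes of metabolism, cell wall proteins, mitochondrial proteins and many others.

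By the R64 annotation, 290 of the 335 features matched an annotated gene, all of them protein-coding and all on chromosome XII between positions 489573 and 1077898, a stretch of 588.3 kb. The annotated ribosomal RNA units end at 489469, so the label of the region held for every matched member. The 213 matched features on the other side lay between 585 and 447575. Of the 335 members, 320 reached a mean of 1 RPKM over the 6 libraries and entered the test, 15 did not, and 1 was listed at 0 in every library. RPKM are reads divided by gene length in kb and by the size of the library.

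Promoters are shown for 4 members of the gene groups that the results turn on, 2 of the general stress response and 2 of ribosome assembly, to let the region's values be read beside the regulatory letters of the groups. Each window runs from 250 bases before the start of the gene to 50 bases within it, on the gene's own strand, from the RefSeq R64 genome. Capitals mark the stress response element (STRE, letters AGGGG on either strand) in TFS1 (chrXII:513772-514071, minus strand) and GSY2 (chrXII:660466-660765, plus strand), and the PAC element (letters GATGAG on either strand), common in front of ribosome assembly genes, in DBP9 (chrXII:696781-697080, minus strand) and PWP1 (chrXII:543718-544017, plus strand).
TFS1: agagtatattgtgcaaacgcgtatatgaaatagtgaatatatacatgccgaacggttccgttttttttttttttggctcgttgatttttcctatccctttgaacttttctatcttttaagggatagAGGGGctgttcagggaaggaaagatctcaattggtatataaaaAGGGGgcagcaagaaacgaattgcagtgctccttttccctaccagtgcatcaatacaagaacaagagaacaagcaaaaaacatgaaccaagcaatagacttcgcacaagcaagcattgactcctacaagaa
GSY2: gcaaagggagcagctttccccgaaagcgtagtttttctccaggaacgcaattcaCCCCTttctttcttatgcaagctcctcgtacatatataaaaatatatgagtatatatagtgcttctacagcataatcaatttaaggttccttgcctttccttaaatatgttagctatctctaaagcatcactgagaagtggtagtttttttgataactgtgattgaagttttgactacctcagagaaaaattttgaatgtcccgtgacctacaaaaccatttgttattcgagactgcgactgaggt
DBP9: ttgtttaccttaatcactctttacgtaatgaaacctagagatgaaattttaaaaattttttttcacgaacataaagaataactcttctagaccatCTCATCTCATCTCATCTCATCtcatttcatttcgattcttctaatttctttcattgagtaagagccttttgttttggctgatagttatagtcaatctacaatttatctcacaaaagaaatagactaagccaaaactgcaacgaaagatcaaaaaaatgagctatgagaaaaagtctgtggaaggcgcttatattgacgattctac
PWP1: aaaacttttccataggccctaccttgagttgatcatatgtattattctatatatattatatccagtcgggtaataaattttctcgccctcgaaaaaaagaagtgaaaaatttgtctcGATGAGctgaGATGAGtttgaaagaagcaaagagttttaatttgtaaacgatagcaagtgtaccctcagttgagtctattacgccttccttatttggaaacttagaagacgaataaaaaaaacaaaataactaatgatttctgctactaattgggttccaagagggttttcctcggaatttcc

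The TFS1 window held 2 STRE matches, 124 and 81 bases before the gene, and the GSY2 window held 1, at 196 bases. The DBP9 window held 4 PAC matches that overlap each other in a run, and the PWP1 window held 2, at 133 and 123 bases. Across the region STRE was present in 61 of 290 promoters (21.0%), beside 40 of 211 (18.96%) before the ribosomal DNA and 21.6% of all 6006 promoters of the same length. PAC was present in 71 of 290 promoters (24.5%), beside 55 of 211 (26.1%) before the ribosomal DNA and 20.3% of all promoters.

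Libraries held 19.3 to 24.6 M reads, as read back from the RPKM values, and 3 reads in 1 kb were worth 0.122 to 0.156 RPKM. MMS21 itself, off chromosome XII, measured 16.6, 12.9 and 13.5 RPKM in the mutant libraries, against 3.23, 3.04 and 2.18 RPKM in wild type. Wild type replicate 1 stood apart from the other wild type libraries across the whole genome, toward the mutant, with a median deviation from the wild type mean of 0.099 off chromosome XII, against -0.029 and -0.065 in the others. As a check on the cells, the summed level of 7 markers of haploid a cells was 2507 to 2634 RPKM in the mutant and 2375 to 2731 RPKM in wild type, that of 4 markers of alpha cells was 24.4 to 27.6 RPKM in the mutant and 12.9 to 17.04 RPKM in wild type, and that of 10 meiotic markers was 53.5 to 56.8 RPKM in the mutant and 37.3 to 41.1 RPKM in wild type (their part in the results was not tested). BAR1, one of the a cell markers, was at or near 0 in every library.

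Genes beyond the ribosomal DNA were shifted upward in the mutant as a body, by about the same amount along the whole stretch. Their median log2 fold change was 0.49, against 0.23 before the ribosomal DNA and 0.23 off chromosome XII. The difference between the 2 sides of the repeats was 0.26 on the log2 scale. The medians themselves depended on the scaling. With median-of-ratios scaling they were 0.25 beyond the repeats and -0.015 before them, and with quantile normalization 0.19 and -0.14. All log2 fold changes subtract the wild type from the mutant mean of log2(RPKM + 1), and are too small for genes with low values because of the added 1. The median ratio of mean RPKM, mutant over wild type, was 1.43 beyond the ribosomal DNA and 1.17 before it.

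In a limma fit over all features, where an adjusted p under 0.05 was a call, 243 of the 320 tested members rose and 15 fell, while 62 were not called. Over all 6731 features tested, 42.7% were called higher and 10.9% lower, and because the region was chosen from this contrast nothing is read from the excess. Before the ribosomal DNA, 99 of 220 features rose and 19 fell. Every mutant library lay above every wild type library for 260 of the 320 members (81.2%), beside 112 of 220 (50.9%) before the repeats and 50.1% of all features. Every mutant library lay below every wild type library for 19 members, beside 14.3% of all features, and nothing is read from these counts either. The spread of log2 fold changes was alike, with an interquartile range of 0.52 beyond the repeats, 0.51 before them and 0.54 off chromosome XII. In bulk samples, fewer cells of a type and less RNA per cell cannot be told apart.

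The shift was present in each mutant library. As the median deviation from the wild type mean, genes beyond the ribosomal DNA stood at 0.46, 0.50 and 0.52 in mutant replicates 1, 2 and 3, against 0.098, -0.035 and -0.061 in wild type replicates 1, 2 and 3. Genes before the ribosomal DNA stood at 0.19, 0.25 and 0.23 in the mutant and at 0.097, -0.016 and -0.088 in wild type. The difference between the sides was therefore 0.27, 0.25 and 0.28 in the mutant libraries, against 0.00095, -0.019 and 0.027 in the wild type libraries. Wild type replicate 1 was raised on both sides by the same amount, and its difference between the sides lay between those of the other wild type libraries.

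**Figure D1:**
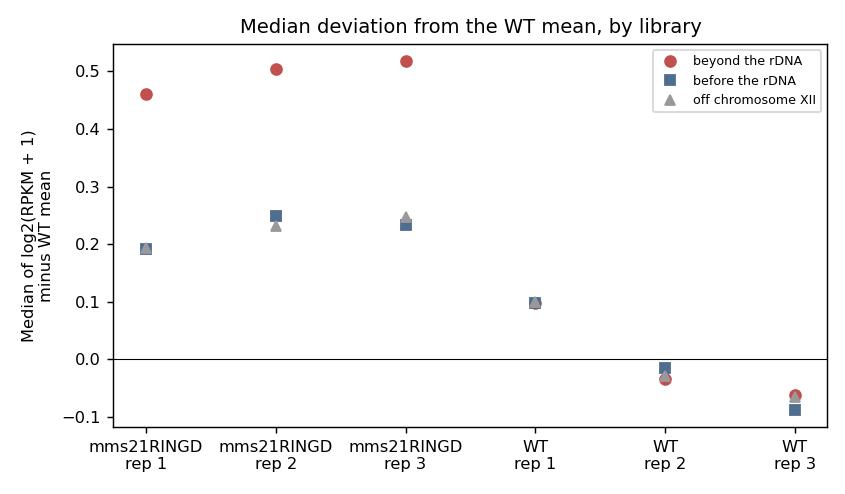
Median over genes of log2(RPKM + 1) minus the wild type mean (vertical axis) in each library (horizontal axis), for genes beyond the ribosomal DNA (circles), before it (squares) and off chromosome XII (triangles). In the mutant libraries the circles lie at 0.46 to 0.52 and the other marks at 0.19 to 0.25, while in each wild type library the 3 marks nearly coincide.

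The share of reads, in which strongly expressed genes weigh most, moved in the same direction. Genes beyond the ribosomal DNA took 6.43%, 6.30% and 6.32% of the reads in matched features in the mutant libraries, against 5.80%, 5.89% and 5.78% in wild type, and the groups did not overlap. Genes before the repeats took 5.11%, 5.10% and 5.11% in the mutant, against 5.53%, 5.16% and 4.94% in wild type, so here the mutant lay within the wild type range. The share beyond the repeats over the share before them averaged 1.24 in the mutant and 1.12 in wild type. It ran from 1.05 to 1.17 over the wild type libraries, so the sides were less alike in wild type here than by the medians. The 95% Wilson interval of each share was within 0.0112 percentage points of it and covers counting error only.

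Along the stretch the values were flat. In bins of 50 kb counted from the end of the ribosomal RNA units, the 11 bins beyond them that held at least 15 tested genes had medians from 0.38 to 0.61, and the 9 bins before them had medians from 0.12 to 0.33, so the bins of the 2 sides did not overlap. The first bin beyond the repeats stood at 0.43, with 20 of 29 genes higher, and the last bin before them at 0.25, with 13 of 25 higher. Over all features 42.7% were called higher. In bins of at least 15 genes the share ran from 31.8% to 61.9% before the repeats and from 65.5% to 94.1% beyond them. Nothing is read from these counts. Across 279 members with a position, Spearman's rho between log2 fold change and distance from the repeats was -0.021, a description over neighbouring genes that share libraries. Among 33 chromosome arms, with the right arm of XII divided at the repeats, the stretch ranked second by median, after the right arm of chromosome I, where 29 features gave 0.51.

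**Figure D2:**
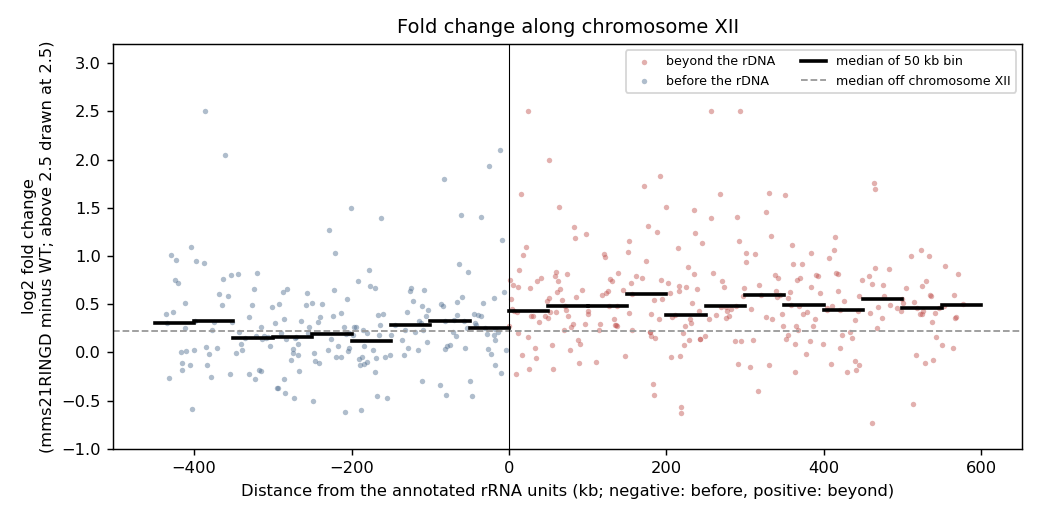
Log2 fold change, mutant minus wild type (vertical axis, values above 2.5 drawn at 2.5), of each gene on chromosome XII against its distance from the annotated ribosomal RNA units in kb (horizontal axis, negative before and positive beyond). Black bars are medians of 50 kb bins, from 0.12 to 0.33 before the repeats and from 0.38 to 0.61 in the bins of at least 15 genes beyond them, and the dashed line is the median off chromosome XII at 0.23.

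At the boundary itself the nearest genes on each side differed among themselves more than the sides did. The first members beyond the repeats were YLR162W and RRT15, which lie next to ribosomal RNA sequence and were at or below 3.90 RPKM in every library. YLR162W measured 2.33, 1.63 and 3.90 RPKM in the mutant, against 0.569, 3.35 and 2.58 RPKM in wild type, and the groups overlapped. MAS1, a subunit of the mitochondrial processing peptidase, measured 54.9, 56.8 and 57.8 RPKM in the mutant, against 48.5, 33.5 and 34.1 RPKM in wild type, with all mutant libraries above and wild type replicate 1 nearest to them. Its call was lost on leaving out any mutant library, or wild type replicate 2 or 3 (0.46 to 0.57). SHH4, a relative of a succinate dehydrogenase subunit, and PUS5, a pseudouridine synthase of mitochondrial ribosomal RNA, rose with log2 fold changes of 0.45 ± 0.15 and 0.70 ± 0.10 (± is the standard error from limma here and below). SHH4 was not called under either other scaling, with no filter on low values, with the replicate block or without any one of 4 libraries (mms21RINGD replicates 2 and 3, wild type replicates 2 and 3; 0.33 to 0.44), and PUS5 was not called by quantiles (0.11).

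On the other side, ACS2, an acetyl-CoA synthetase, measured 522, 512 and 511 RPKM in the mutant, against 577, 472 and 480 RPKM in wild type, with overlapping groups (log2 fold change 0.02 ± 0.08, not called as deposited and lower, at -0.23, with median-of-ratios scaling). STM1, a ribosome-associated protein, fell (-0.21 ± 0.04; 0.027 and not called by quantiles), while YLR152C and PCD1, a hydrolase of coenzyme A derivatives in peroxisomes, rose (0.62 ± 0.06 and 1.17 ± 0.17). GID11, of the GID ubiquitin ligase, rose as well (2.10 ± 0.21). Between the 2 sides, RNH203, a subunit of ribonuclease H, measured 38.8, 37.4 and 33.7 RPKM in the mutant and 35.1, 30.3 and 27.1 RPKM in wild type. The asparaginase genes of the ASP3 family, which lie among the ribosomal RNA units in the reference genome, were at or below 0.0912 RPKM in every library.

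At the far end of the chromosome most of the nearest tested genes rose as well. Of the 5 tested genes nearest the right end, YLR464W, YLR460C, GAB1 and YLR456W rose with log2 fold changes from 0.37 for GAB1, a subunit of the enzyme that attaches GPI anchors, to 0.82 for YLR460C. None of these 4 was called with quantile normalization, where YLR464W stood at -0.12 and the others at 0.087 to 0.27. GAB1 and YLR464W were also not called by median-of-ratios, and lost their calls when any 1 mutant library or wild type replicate 2 was left out, YLR464W also without wild type replicate 3. NBP1, needed for duplication of the spindle pole body, was not called although its groups did not overlap, at 6.54, 6.41 and 7.04 RPKM in the mutant against 6.35, 4.19 and 4.56 RPKM in wild type. All of the 5 but GAB1 averaged under 9.40 RPKM in wild type. For genes off chromosome XII in that lowest quartile of wild type level the median was 0.53. YLR464W (0.51) and NBP1 (0.36) lay below it, and YLR456W (0.60) and YLR460C (0.82) above it. Over all features 42.7% were called higher. Without the members within 30 kb of the right end, the difference between the sides was 0.25.

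The displacement from the genes before the repeats was of like size at every expression level, although the fold change itself was larger for weakly expressed genes. With genes divided at the quartiles of wild type level over all tested features, the median beyond the repeats was 0.78, 0.55, 0.41 and 0.14 from the lowest of the 4 classes to the highest, against 0.50, 0.28, 0.13 and -0.13 before the repeats. The difference between the sides was 0.28, 0.27, 0.29 and 0.27 in the same order. Off chromosome XII the class medians were 0.53, 0.26, 0.14 and -0.047, so the gap to those genes was smallest in the highest class. Level, length and GC content, which the choice of region did not use, were close on both sides. The median wild type level was 20.9 RPKM beyond the repeats, 19.4 RPKM before them and 21.0 RPKM over all features, the median gene length was 1184, 1284 and 1182 bases, and the median GC content was 39.3%, 40.1% and 39.6%. Strand was less alike, with 52.4%, 41.8% and 50.7% of matched genes on the plus strand in the same order.

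Promoters with and without the stress element both showed the shift. Beyond the repeats the median log2 fold change was 0.69 for 60 tested genes with an STRE match and 0.43 for 219 without one, against 0.26 for 39 genes with a match and 0.21 for 164 without one before the repeats. With a PAC match it was 0.37 beyond the repeats (66 genes) and 0.099 before them (54 genes), and without one it was 0.54 (213 genes) and 0.27 (149 genes). Off chromosome XII the median was 0.42 with an STRE match and 0.20 without one. For PAC it was 0.085 with a match and 0.26 without one. A match is a run of letters in a window and not a site in use.

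Genes of cytosolic ribosomal proteins, which fell in nearly every other part of the genome, were close to wild type level beyond the ribosomal DNA. Their median log2 fold change was -0.12, and of the 13 genes there 7 fell, 1 rose and the other 5 were not called. The share that fell was thus 53.8%, beside 10.9% lower and 42.7% higher among all features tested. The number of the 13 that fell was 3 to 10 when 1 library was left out, with 10 without wild type replicate 1. Off chromosome XII 117 of 119 fell and 2 were not called, with a median of -0.54, and before the ribosomal DNA all 5 fell, with a median of -0.59. All 13 lay above the median of the genes off chromosome XII, and 11 of them lay above at least 117 of those 119. The median beyond the repeats was -0.37 with median-of-ratios scaling, where 10 fell and 3 were not called, and turned to 0.079 with quantile normalization, where 6 rose and 3 fell, while its distance from the genes off chromosome XII stayed at 0.41 and 0.40.

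RPS22B, of the small subunit, was the member that rose. It measured 871, 869 and 835 RPKM in the mutant, against 729, 747 and 713 RPKM in wild type, and no mutant library reached down to the wild type range (log2 fold change 0.23 ± 0.04). It was not called with median-of-ratios scaling, where its log2 fold change was -0.017. The gene holds the small nucleolar RNA snR44 within its span, so reads of the snoRNA may be counted with it. RPS31, the most strongly expressed member of the region, which encodes a fusion of ubiquitin to a ribosomal protein, measured 7292, 6827 and 7208 RPKM in the mutant, against 7811, 8315 and 8749 RPKM in wild type. RPP0, the stalk protein of the large subunit, fell most in the group, to 4694, 4573 and 4535 RPKM in the mutant, against 5948, 6176 and 6075 RPKM in wild type.

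Many ribosomal proteins of yeast are encoded by a pair of genes, an A copy and a B copy, which made it possible to compare genes of the same protein at different places. For all 10 pairs with 1 copy beyond the ribosomal DNA and the partner on another chromosome, the copy beyond the ribosomal DNA had the higher log2 fold change, by 0.078 to 0.93 with a median of 0.45. The largest difference is that of RPS22B, which may include reads of snR44 within its span, and snR44 rose too (0.46). The next largest was 0.62, for RPS30A. For the 4 pairs with 1 copy before the ribosomal DNA, that copy had the lower log2 fold change in each, with differences of -0.60 to -0.074; the lowest is that of RPL15A, whose partner RPL15B was weakly expressed at 24.2 to 29.4 RPKM. RPL37A, beyond the repeats, measured 1015, 965 and 966 RPKM in the mutant, against 940, 968 and 952 RPKM in wild type, with overlapping groups. Its partner RPL37B on chromosome IV fell to 679, 649 and 671 RPKM in the mutant, against 988, 952 and 1007 RPKM in wild type.

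RPS30A measured 956, 943 and 992 RPKM in the mutant, against 928, 888 and 930 RPKM in wild type. Its partner RPS30B on chromosome XV fell to 482, 488 and 479 RPKM in the mutant, against 673, 701 and 744 RPKM in wild type. RPS22A, the partner of RPS22B on chromosome X, fell to 2936, 2758 and 2808 RPKM in the mutant, against 4455, 4591 and 4728 RPKM in wild type. The pair that differed least was RPS28B and RPS28A, with log2 fold changes of -0.33 ± 0.04 for the copy beyond the repeats and -0.40 ± 0.03 for its partner on chromosome XV. Copies of a pair are close to identical in sequence, so reads counted for one may include reads of the other, and these values are uncertain to that extent. By library, the deviation of each gene from its own wild type mean was taken, on the log2 scale, and that of the partner was subtracted from that of the copy. As the median over the 10 pairs, this stood at 0.45, 0.46 and 0.46 in the mutant libraries and at 0.015, 0.024 and -0.041 in the wild type libraries. These values compare changes and not levels, since copies of a pair could differ widely in wild type level.

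**Figure D3:**
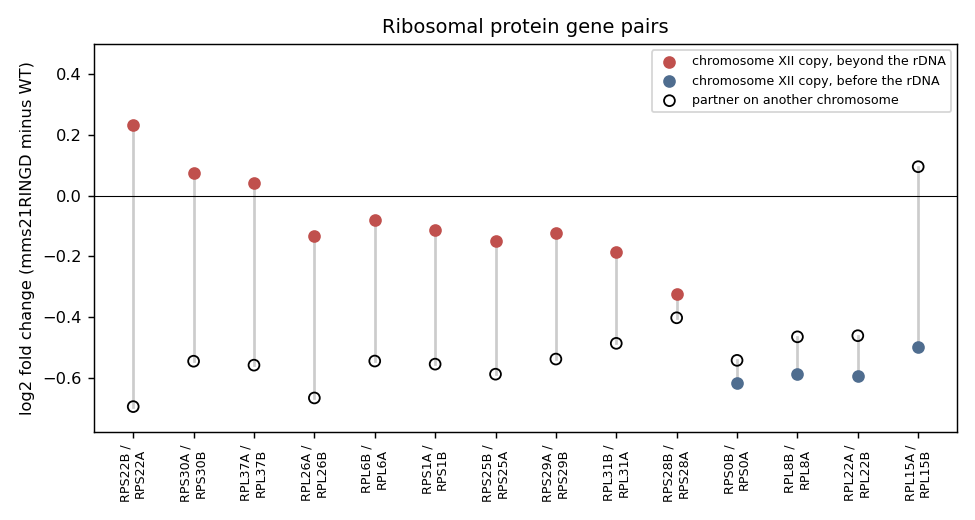
Log2 fold change, mutant minus wild type (vertical axis), of each ribosomal protein gene on chromosome XII (filled circles) and of its partner copy on another chromosome (open circles), joined by a line for each pair (horizontal axis). In all 10 pairs with a copy beyond the ribosomal DNA the filled circle is the upper one, and in the 4 pairs with a copy before it the filled circle is the lower one. The value of RPS22B may include reads of snR44, which lies within the gene.

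Ribosome biogenesis factors, which mature ribosomal RNA and build the subunits, were displaced as well. Their median was -0.038 over 10 genes beyond the repeats, of which 1 rose and the other 9 were not called. The shares among all features tested were 42.7% higher and 10.9% lower. Before the repeats 3 of 11 fell and 8 were not called, with a median of -0.27, and off chromosome XII 69 of 145 fell and 1 rose, with a median of -0.32. By median-of-ratios the medians were -0.29, -0.52 and -0.57, with 7 of 11 lower before the repeats and 123 of 145 off chromosome XII. By quantiles they were -0.19, -0.49 and -0.53, with 8 of 11 and 130 of 145 lower. The gene that rose was FPR4, a nucleolar prolyl isomerase and histone chaperone, at 110, 115 and 119 RPKM in the mutant, against 79.2, 94.1 and 85.2 RPKM in wild type. Its log2 fold change of 0.41 ± 0.08 was above that of all 145 genes off chromosome XII, and was not called with either other scaling (0.16 by median-of-ratios and 0.24 by quantiles).

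For the other 9, every mutant library lay within the range of the wild type libraries, whose lowest was wild type replicate 1. PWP1, of large subunit assembly, measured 93.7, 93.3 and 96.8 RPKM in the mutant, against 75.3, 98.5 and 97.4 RPKM in wild type. NOP56, a core protein of the C/D snoRNPs, measured 342, 338 and 369 RPKM in the mutant, against 331, 430 and 432 RPKM in wild type, and had the lowest log2 fold change of the 10 (-0.18 ± 0.11). CBF5, the pseudouridine synthase of the H/ACA snoRNPs, the helicase gene DBP9 and the small subunit processome genes UTP13 and UTP21 lay between -0.13 and 0.08. Without wild type replicate 1, 7 of the 10 fell and 1 rose (median -0.17), beside 9 of 11 that fell before the repeats and 132 of 145 off chromosome XII. When any other single library was left out, the 3 calls before the repeats were lost and the number off chromosome XII that fell was 12 to 18.

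Of the translation factors, 3 were encoded beyond the repeats, where 1 rose and 2 were not called. Off chromosome XII there were 39, of which 29 fell and 3 rose. The shares among all features tested were 42.7% higher and 10.9% lower. HCR1, a part of initiation factor eIF3, measured 142, 147 and 151 RPKM in the mutant, against 122, 113 and 109 RPKM in wild type (log2 fold change 0.36 ± 0.06), and was not called with median-of-ratios scaling (0.11). GCD7, of the exchange factor eIF2B, was not called, at 110, 113 and 112 RPKM in the mutant against 94.97, 105 and 106 RPKM in wild type. YEF3, the fungal elongation factor, was not called either, at 4353, 4097 and 4112 RPKM in the mutant against 4046, 4465 and 4424 RPKM in wild type. YEF3 was called higher with quantile normalization, at 0.20, and lower with median-of-ratios scaling, at -0.29. The median of the 3 was 0.13 as deposited, 0.20 with quantile normalization and -0.12 with median-of-ratios scaling, against -0.32 as deposited off chromosome XII.

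**Figure D4:**
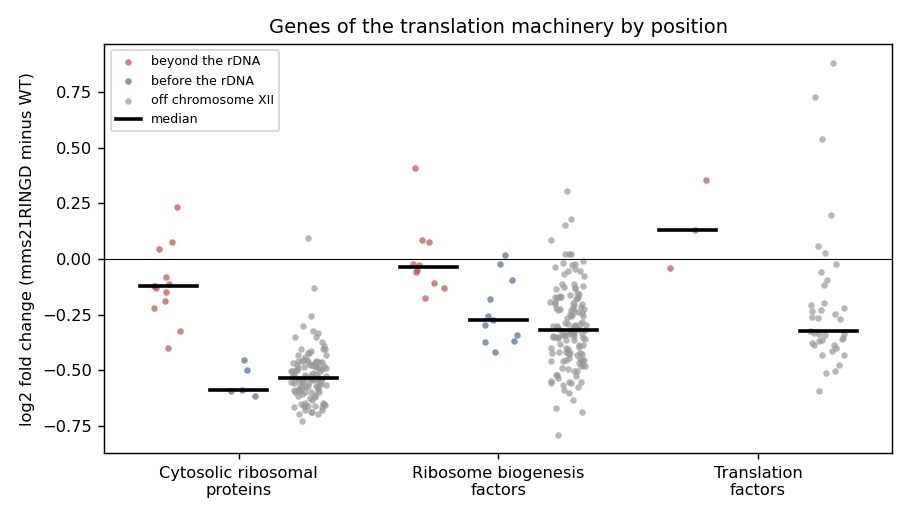
Log2 fold change, mutant minus wild type (vertical axis), of single genes of 3 groups (horizontal axis), beyond the ribosomal DNA (left), before it (middle) and off chromosome XII (right), with the median as a black bar. Medians beyond the ribosomal DNA were -0.12 for ribosomal proteins, -0.038 for biogenesis factors and 0.13 for translation factors, against -0.54, -0.32 and -0.32 off chromosome XII; the sign of the first turned with quantile normalization and that of the last with median-of-ratios scaling.

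Proteasome, mitochondrial and amino acid synthesis genes were represented by few members in the region. Off chromosome XII, 32 of 33 proteasome genes, 44 of 72 genes of the mitochondrial ribosome, 13 of 39 of the respiratory chain and ATP synthase and 33 of 63 of amino acid synthesis were called higher. By median-of-ratios these counts were 24, 10, 6 and 12, with 17 genes of amino acid synthesis and 6 of the respiratory list then lower. Over all features tested, 42.7% were called higher as deposited and 25.7% by median-of-ratios. The respiratory count was below that share under both scalings. RPN13, the ubiquitin receptor of the proteasome and its only listed gene there, measured 178, 167 and 172 RPKM in the mutant, against 118, 95.04 and 106 RPKM in wild type, and its log2 fold change of 0.70 ± 0.09 was above that of 32 of the 33 proteasome genes off chromosome XII. MRPL4 and MRPL15, of the mitochondrial ribosome, rose by 0.69 ± 0.14 and 0.47 ± 0.10, beside a median of 0.39 over the 72 such genes off chromosome XII, and MRPL4 was not called with quantile normalization (0.22). ATP14, a subunit of ATP synthase, rose (0.51 ± 0.12), a call that was lost without mms21RINGD replicate 3 (0.49) or wild type replicate 2 (0.46), and COX8, of cytochrome oxidase, was not called (0.05 ± 0.12). Among amino acid synthesis genes, ILV5, of the branched-chain pathway, measured 1730, 1681 and 1722 RPKM in the mutant, against 1410, 1424 and 1400 RPKM in wild type. LEU3, the activator of leucine synthesis, rose as well (0.46 ± 0.08). By median-of-ratios neither was called (0.026 for ILV5 and 0.22 for LEU3), and LEU3 was not called by quantiles either (0.096). MET17, of sulfur amino acid synthesis, was not called, with wild type replicate 1 at 487 RPKM above the mutant at 426, 402 and 394 RPKM and the other wild type libraries at 323 and 320 RPKM.

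Among called members with a standard name and a mean of at least 10 RPKM, the largest rises ran from 4.09 for TMA10 to 1.40 for PEX30 over 10 genes of several roles. All 3 members of the general stress list rose, as did both members before the ribosomal DNA and all 72 off chromosome XII. Over all features 42.7% were called higher. The list was chosen with earlier results of these data known, so nothing is read from its counts. TMA10, a small ribosome-associated protein, measured 69.4, 73.3 and 72.9 RPKM in the mutant, against 7.78, 2.20 and 1.76 RPKM in wild type (log2 fold change 4.09 ± 0.41), and its promoter window held no STRE match. TFS1, an inhibitor of carboxypeptidase Y, measured 67.5, 75.2 and 76.1 RPKM in the mutant, against 12.2, 6.38 and 7.46 RPKM in wild type. GSY2, a glycogen synthase, measured 45.3, 43.8 and 43.8 RPKM in the mutant, against 20.0, 10.4 and 9.76 RPKM in wild type. For all 3, wild type replicate 1 was the highest wild type library and still lay far below the mutant.

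NCW2, a cell wall protein, rose to 121, 149 and 146 RPKM in the mutant, against 39.9, 32.2 and 30.6 RPKM in wild type. PUN1, a plasma membrane protein linked to cell wall integrity, rose to 192, 190 and 194 RPKM in the mutant, against 59.0, 54.8 and 54.2 RPKM in wild type. DCS1, of messenger RNA decapping, ATG33, needed for mitophagy, HMX1, a heme oxygenase, GAS2, a glucan-remodelling enzyme of spores, and PEX30, of peroxisome formation, were the others of the 10, with log2 fold changes from 1.83 for DCS1 to 1.40 for PEX30. Of the 320 tested members, 49 rose by at least 1 on the log2 scale (15.3%), beside 8.38% of all features.

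The 15 members that fell (4.69% of those tested, beside 10.9% of all features) went against the region. Beside the 7 ribosomal protein genes they included INA1, CTS1, IMD3 and SAM1, and 4 small or overlapping reading frames with systematic names only. Such frames may share reads with a neighbour, so the 15 need not be separate cases. INA1, of a membrane protein family found in eisosomes, measured 191, 213 and 187 RPKM in the mutant, against 250, 397 and 356 RPKM in wild type. It is the direct neighbour of PUN1 (INA1 at 951156 to 953183 and PUN1 at 953353 to 954144), so a pair of adjacent genes lay at -0.73 ± 0.17 and 1.76 ± 0.06. CTS1, the chitinase that parts daughter cells from mother cells, measured 348, 360 and 351 RPKM in the mutant, against 538, 520 and 514 RPKM in wild type. IMD3, an IMP dehydrogenase of guanine nucleotide synthesis with close relatives elsewhere in the genome, measured 319, 301 and 311 RPKM in the mutant, against 412, 477 and 465 RPKM in wild type, and SAM1, an S-adenosylmethionine synthetase, fell by 0.17 on the log2 scale, a call that was lost by quantiles, with no filter on low values, with the replicate block, and on leaving out any mutant library or wild type replicate 2 or 3.

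**Figure D5:**
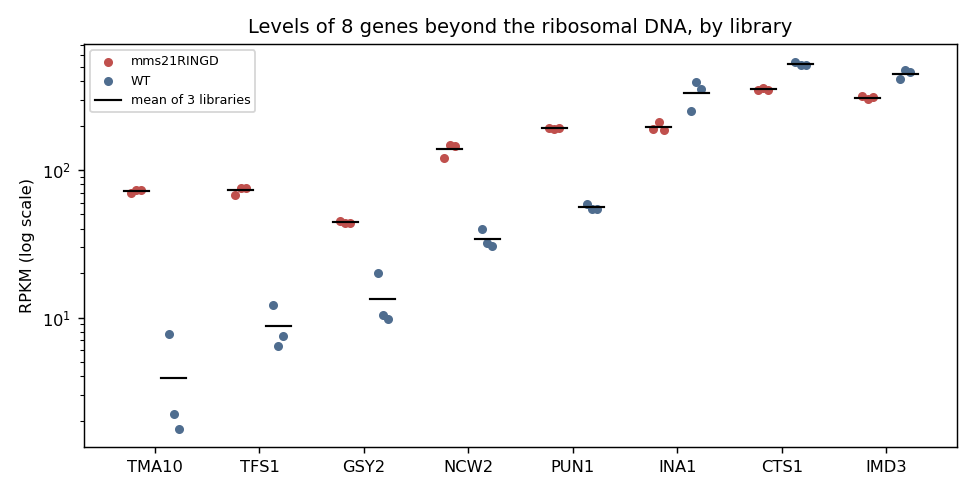
RPKM on a log axis (vertical) of 8 genes beyond the ribosomal DNA (horizontal) in the 3 mutant libraries (left of each pair) and the 3 wild type libraries (right), with the mean as a bar. TMA10, TFS1, GSY2, NCW2 and PUN1 are higher in every mutant library, and INA1, CTS1 and IMD3 are lower in every mutant library.

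Taking every gene of the role lists out of both sides left a difference of 0.29 between the medians beyond and before the repeats, and taking only protein-coding genes that overlap no other gene left 0.25. Small nucleolar RNA genes on chromosome XII carry other names and were no members. Beyond the repeats, snR61, snR44 and snR34 rose, with log2 fold changes of 0.82, 0.46 and 0.52, snR55 and snR57 were not called (0.21 and 0.02), and before the repeats snR79 fell and snR30 was not called (-0.25 and -0.065), beside a median of -0.03 over 71 small nucleolar RNAs off chromosome XII; these were named after their values were seen.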

How the data were processed

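The authors deposited 1 table of RPKM values, with 1 column for each of the 6 libraries, assigned by title. The submitters' processing notes name the build sacCer3 and, with no role given, edgeR 3.8.6, TopHat2 2.0.8 and CASAVA 1.8.2; read counter, annotation and strand setting: not given in the sources used here. Antisense or overlapping genes may therefore share reads. Positions come from RefSeq R64, the same assembly, which matched 6162 of 7126 features. Depths were read from the value of a single read: multiplied by length, 99.8% of values above 0 came out whole, to 0.02 of a read.

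The limma fit (3.58.1, R 4.3.3) took log2(RPKM + 1) of the 6731 features averaging 1 RPKM or more (trend, no covariate, two-sided, Benjamini-Hochberg over all of them), after a check on simulated data. Values were not refitted within the region, and medians over members carry no test. The members, the gene lists and the rule for naming genes were chosen with earlier results of these data known. The rule took the 5 tested genes nearest the repeats on each side and nearest the right end, the 10 highest and 10 lowest called members of at least 10 RPKM with a standard name and groups that do not overlap, the 8 most expressed, MMS21, and any chromosome XII gene of the lists with its partner. Alternatives were other pseudocounts, filters, scalings, members, a block for replicate number, and each library left out in turn.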

Additional observations from a re-analysis of the deposited data

How the results depend on the processing

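The difference between the medians beyond and before the ribosomal DNA was positive under every alternative run. It was 0.26 as deposited, 0.28 with a pseudocount of 0.1 RPKM, 0.21 with 5 RPKM, 0.32 with quantile normalization, 0.29 without the role lists and 0.25 to 0.30 when 1 library was left out. With all features off chromosome XII as the comparison, chosen after seeing the data, it was 0.26.

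The counts moved with the scaling. With median-of-ratios scaling 1729 of all features were higher and 1794 lower, beyond the repeats 26 members were lower, and before them 56 were higher and 57 lower; the median of all features was then 0.0029, against 0.24 as deposited, and 55.6% of the members were called higher beside 25.7% of all features. With quantile normalization 1369 features were higher and 2330 lower (median -0.099), 147 members beyond the repeats were higher, and before them 43 were higher and 82 lower. Without the role lists 8 members beyond the repeats and 11 features before them were lower.

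When 1 library was left out, 1860 to 3864 features were higher and 433 to 1028 lower, 200 to 257 members beyond the repeats were higher and 10 to 29 lower, and before them 62 to 133 were higher and 12 to 34 lower. Each highest count came from leaving out wild type replicate 1, and each lowest from leaving out mms21RINGD replicate 3, with ties. Leaving out mms21RINGD replicate 2 also gave 62 higher and 12 lower before the repeats. The 10 lower beyond them also came without mms21RINGD replicate 2 and without wild type replicate 2. The count of lower features also fell to 459 without mms21RINGD replicate 2 and to 468 without wild type replicate 2.

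With the replicate number as a block 217 members beyond the repeats were higher and 10 lower, and 2250 and 549 of all features. Same-numbered libraries deviated with correlations of -0.143, 0.046 and -0.096, so the numbers were not taken to pair the libraries.

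Of the named genes, the direction turned with quantile normalization for SHH4 (-0.10), STM1 (0.027), YLR464W (-0.12), RPS25B (0.035), RPS29A (0.079), YEF3 (0.20), RPL38 (0.14), RPS1A (0.16), RPL6B (0.17) and RPL15B (-0.22), and with median-of-ratios scaling for ACS2 (-0.23), DPS1 (-0.16) and RPS22B (-0.017). The cause of these moves was not tested. Genes near 1 RPKM rest on few reads, and their fold changes are the least precise.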
